A study of Mus musculus with 6 samples.

Results

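The SLC25 family holds the transporters that carry metabolites through the inner mitochondrial membrane, and its transcripts were measured here by RNA-seq in renal tubular epithelial cells of mice. The table of counts had 46095 genes, and 47 of them had a symbol made of Slc25a and a number. The 42 with at least 10 counts summed over the 6 libraries are the carriers described here. The other 5 were Slc25a18 with 5 counts, Slc25a2 with 7, Slc25a31 with 3, and Slc25a41 and Slc25a54 with 0. Of the 42 carriers, 40 passed the filter on low counts and were tested, out of 14611 genes tested in all.

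The inner mitochondrial membrane lets almost no metabolite through on its own, and most SLC25 carriers work as exchangers or co-transporters that link the matrix to the cytosol. Slc25a4 and Slc25a5 swap ADP for ATP, Slc25a3 brings in phosphate, and others move Krebs cycle acids, amino acids, cofactors, iron and fatty acids bound to carnitine. The carriers are made in the cytosol and inserted into the membrane by the TIM22 machinery. Tubular cells of the kidney, above all those of the proximal tubule, are rich in mitochondria and burn fatty acids for much of their energy.

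The libraries came from PTECs, the primary tubular epithelial cells isolated from kidneys of 10-week-old mice, from 3 VHL-KO mice numbered 1, 2 and 4 and from 3 VHL-KO;SETD2-KO mice numbered 2, 3 and 4. Both genotypes carried floxed VHL alleles and a Cre driven by the Cdh16 (Ksp) promoter. The study used this Cre for deletion in tubular epithelial cells, and how completely each tubule segment recombined is not shown by these data. The second genotype also carried floxed Setd2 alleles. The floxed VHL alleles and the Cre were thus common to all 6 mice, and the comparison asks what the added Setd2 alleles changed. Cells that never expressed Cre keep both genes, and the PTECs were isolated to raise the share of Cre-positive cells.

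Library totals ran from 11168552 to 17883466 counts, so that 3 counts, taken as the smallest signal, stood for 0.168 to 0.269 CPM, the count scaled to the size of the library. This limit covers counting error only, since the reads carried no molecular identifiers. CPM values below are scaled with TMM factors, which adjust each library to the bulk of its genes. Setd2 itself had 71.3, 73.8 and 12.3 CPM in the VHL-KO libraries and 79.5, 57.3 and 89.5 CPM under the label VHL-KO;SETD2-KO, so the label was not visible as a lower gene count, and each direction given here rests on that label. Vhl had 14.0, 12.8 and 25.8 CPM in the VHL-KO libraries and 14.4, 17.8 and 11.8 CPM in the VHL-KO;SETD2-KO libraries. A count over the whole gene does not show the loss of a floxed exon. VHL-KO replicate 4 stood apart from the rest, with 11.3% of its counts from mitochondrially encoded genes against 25.9% to 36.4% in the other 5 libraries. Over the 40 tested carriers its Spearman correlation with the other libraries was 0.739 to 0.781, whereas the 10 other pairs lay between 0.971 and 0.995. VHL-KO;SETD2-KO replicate 3 had 11704 counts of Xist, the X-inactivation transcript of female cells, and the other libraries had at most 4.

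Markers of the proximal tubule summed to 12970 to 26040 CPM under VHL-KO and to 5908 to 8795 CPM under VHL-KO;SETD2-KO. Of the 10 markers 4 were called lower. VHL-KO replicate 4 gave the 26040 CPM, and VHL-KO replicates 1 and 2 had 13660 and 12970 CPM. Podocyte markers summed to 1462 to 2133 CPM and 2004 to 4920 CPM, and 3 of the 6 were called higher. Those of endothelium summed to 1015 to 1789 CPM and 1335 to 4242 CPM, with 0 of 6 called. VHL-KO;SETD2-KO replicate 3, whose carrier sum is given below, was apart from its group, with 2004 CPM of podocyte markers against 4376 and 4920, 1335 CPM of endothelial markers against 3441 and 4242, and 4326 CPM of loop of Henle and distal tubule markers against 1576 and 1874. The other lists had 2 of 6 called higher for the loop of Henle and distal tubule, 1 of 6 called higher for the collecting duct, and 0 of 6 for stroma and for immune cells. VHL-KO replicate 4 was apart from its group too, with 4771 CPM of loop of Henle and distal tubule markers against 1244 and 1950. It had 433 CPM of collecting duct markers against 47.8 and 59.3, and 414 CPM of stromal markers against 87.4 and 76.7. No listed marker was at 0 counts. In such bulk samples fewer cells of a type and less RNA per cell cannot be told apart, and the part these markers play in the carrier values was not tested.

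A few genes return in the results below. Slc25a39 and Slc25a48 were called lower and Slc25a24 was called higher with or without VHL-KO replicate 4, and Slc25a10 was among the most abundant carriers called lower. The 250 bases upstream of each RefSeq start site are shown for them, on GRCm38.p6, read 5′ to 3′ on the strand of the gene, with every CpG pair in capitals. They lie at chr11:102407518-102407767 (minus strand), chr11:120491587-120491836 (plus), chr13:56438105-56438354 (plus) and chr3:109122899-109123148 (plus). The whole Slc25a39 window lies within the span of the GENCODE gene (chr11:102402985-102407946), which starts further upstream than the window. Gm11788, on the opposite strand, overlapped 6.6% of the exon bases of Slc25a10, and its overlap with the Slc25a10 window was not measured.
Slc25a39: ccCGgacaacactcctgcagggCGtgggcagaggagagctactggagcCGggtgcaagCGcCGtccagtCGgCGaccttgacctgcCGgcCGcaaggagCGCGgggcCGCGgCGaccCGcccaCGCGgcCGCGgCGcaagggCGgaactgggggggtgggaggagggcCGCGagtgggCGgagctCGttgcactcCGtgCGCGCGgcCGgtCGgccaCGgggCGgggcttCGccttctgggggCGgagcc
Slc25a10: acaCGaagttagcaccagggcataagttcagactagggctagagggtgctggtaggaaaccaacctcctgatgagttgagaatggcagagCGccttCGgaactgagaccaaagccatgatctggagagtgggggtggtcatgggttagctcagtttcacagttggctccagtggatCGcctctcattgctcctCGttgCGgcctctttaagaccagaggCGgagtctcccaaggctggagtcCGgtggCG
Slc25a48: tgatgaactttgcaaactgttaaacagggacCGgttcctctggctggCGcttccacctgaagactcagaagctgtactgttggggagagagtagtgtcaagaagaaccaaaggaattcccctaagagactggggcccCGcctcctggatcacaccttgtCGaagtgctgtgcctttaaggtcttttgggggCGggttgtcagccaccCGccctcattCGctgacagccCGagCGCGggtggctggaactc
Slc25a24: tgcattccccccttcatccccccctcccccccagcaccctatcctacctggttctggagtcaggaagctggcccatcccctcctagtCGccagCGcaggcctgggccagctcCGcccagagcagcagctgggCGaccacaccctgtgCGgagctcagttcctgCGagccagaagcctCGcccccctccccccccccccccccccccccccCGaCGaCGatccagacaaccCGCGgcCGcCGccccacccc

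The CpG pairs in these windows numbered 35 for Slc25a39, 9 for Slc25a10, 10 for Slc25a48 and 14 for Slc25a24. Promoter entries were at hand for 33 of the 42 carriers, some with several start sites, which made 43 entries with a median of 12 CpG pairs against 6 over all 32851 promoters. Of the 4 windows shown, only that of Slc25a39 was far above the median of the family. Motifs were searched on both strands in the 300 bases from 250 before to 50 after each start. ACGTG, the core that hypoxia-inducible factors bind, was in 12 of the 43 carrier entries (27.9%) and in 19.6% of all promoters. VHL marks these factors for destruction, and VHL was floxed in both genotypes. The core was not in the entries of Slc25a39, Slc25a10, Slc25a48 or Slc25a24. CCGGAAGT, which GABPA binds, was in 1 entry (2.33%, Slc25a20) against 3.89%, and AAGGTCA, bound by estrogen-related receptors, was in 1 entry (2.33%, Slc25a34) against 4.72%. GCGCATGCG of NRF1 was in 0 carrier entries against 1.75%, and CAAAGTCCA of HNF4A in 0 against 0.475%. These are matches of letters in a window and no measurement of binding.

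A few carriers held most of the family's transcripts. Per kilobase of exon, Slc25a5 was the most abundant at 431 ± 149.5 CPM (mean ± SD over the 6 libraries), followed by Slc25a39 at 178 ± 199, Slc25a3 at 112 ± 56.2, Slc25a10 at 107 ± 106 and Slc25a4 at 82.7 ± 23.3 CPM. Without VHL-KO replicate 4 the means were 97.0 for Slc25a39, 89.6 for Slc25a3, 64.3 for Slc25a10 and 86.1 CPM for Slc25a4, which put Slc25a10 below Slc25a4. The top 3 made up 60.0% of the summed level of the family per kilobase over all libraries and the top 5 made up 75.9%. Slc25a5 was the highest in every library, while the levels of Slc25a39, Slc25a3, Slc25a10 and Slc25a4 overlapped within their spread and their order differed between libraries. The next carriers, Slc25a51 at 22.8 ± 5.56 and Slc25a13 at 22.8 ± 7.95 CPM per kilobase, did not differ beyond their spread either. At the low end, Slc25a32 and Slc25a43 had too few counts to be tested with all libraries, with 8, 9 and 2 counts of Slc25a32 in the VHL-KO libraries and 10, 16 and 5 in the VHL-KO;SETD2-KO libraries. The neighbours on the genome could add to a few of these values. The use of strand in counting is not given in the sources used here. Of the exon bases of Slc25a35, 31.3% overlapped Rangrf on the opposite strand. Other such overlaps were 14.9% in Slc25a33, 8.92% in Slc25a11, 7.06% in Slc25a46 and 6.60% in Slc25a10, and smaller or absent in the rest.

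**Figure D1:**
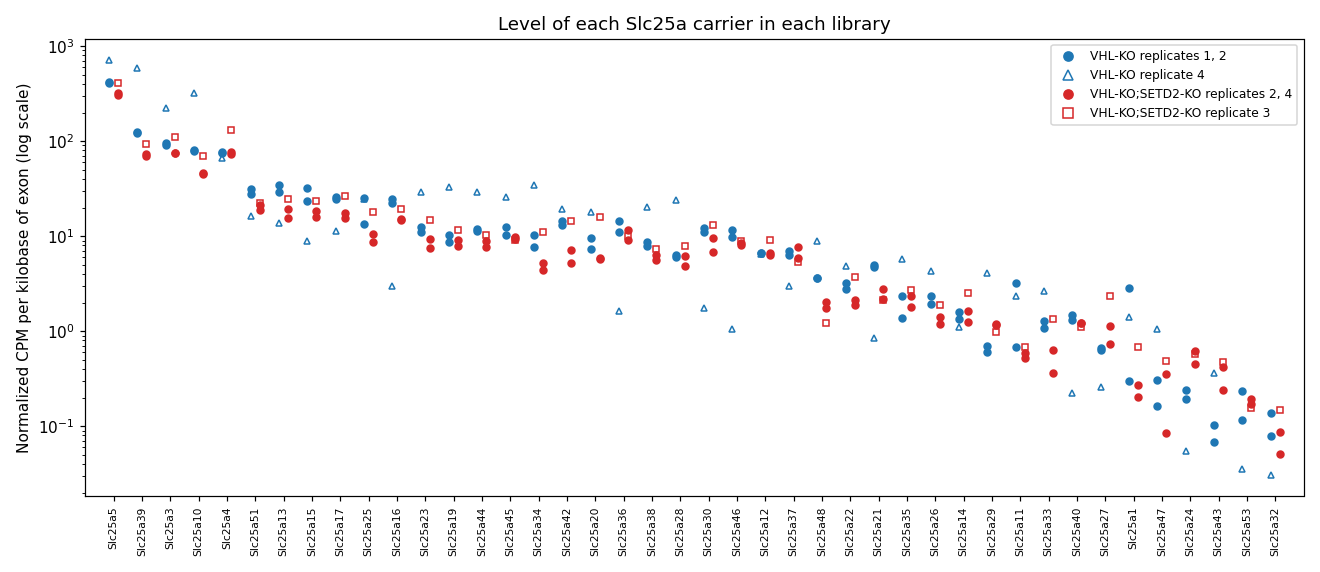
Normalized CPM per kilobase of exon (log axis) of the 42 Slc25a carriers in each of the 6 libraries, ordered by the mean over all libraries, with blue for VHL-KO and red for VHL-KO;SETD2-KO. Slc25a5 is at the top in every library, and VHL-KO replicate 4 (open triangles) lies far from the other 2 VHL-KO libraries for many carriers, above them for some and below them for others.

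The carriers as a family had lower values in the VHL-KO;SETD2-KO libraries, but few passed a threshold and none passed after adjustment. Their summed level was 3584, 3530 and 6856 CPM in the VHL-KO libraries and 2431, 3584 and 2623 CPM in the VHL-KO;SETD2-KO libraries, so VHL-KO;SETD2-KO replicate 3 was level with VHL-KO replicates 1 and 2. This is the library with fewer podocyte and endothelial and more distal tubule transcripts than its group, whose part in the carrier level was not tested. Of the 40 tested carriers 29 had a negative log2 fold change and 11 a positive one, and their median was -0.58 against 0.0094 over all tested genes. Without VHL-KO replicate 4 the median was -0.27 against 0.035. Library sizes were also set from the proximal tubule markers instead, a choice made after the data were seen. The direction then turned to a median of 0.69 for the carriers and 1.15 for all genes. The median of the carriers minus that of all genes was -0.59 with TMM and -0.46 with this scaling on the log2 scale. A change of library sizes moves all genes by similar amounts, so these differences are not separate evidence.

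At an unadjusted p under 0.05 with a fold change of at least 1.5, edgeR's quasi-likelihood test called 5 carriers lower (12.5%, against 4.68% of all genes) and 2 higher (against 2.66%). After Benjamini-Hochberg adjustment over all genes, edgeR called 0 of the 40 carriers and 1 gene in all, Gm6344 (0.00684%), and the lowest adjusted p of any carrier was 0.625. Every adjusted p below is from that adjustment, and called means past the unadjusted threshold unless adjustment is named. At an unadjusted p under 0.05 edgeR had 7 carriers and DESeq2 had 8. DESeq2 gave an adjusted p to only 6 of the 40 carriers, Slc25a3, Slc25a4, Slc25a5, Slc25a10, Slc25a25 and Slc25a39, and called 0 of these, so its count after adjustment says nothing of the other 34. The values of the 2 genotypes did not overlap for 8 carriers that were lower (20.0%, against 11.0% of all genes) and 2 that were higher (against 9.62%).

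**Figure D2:**
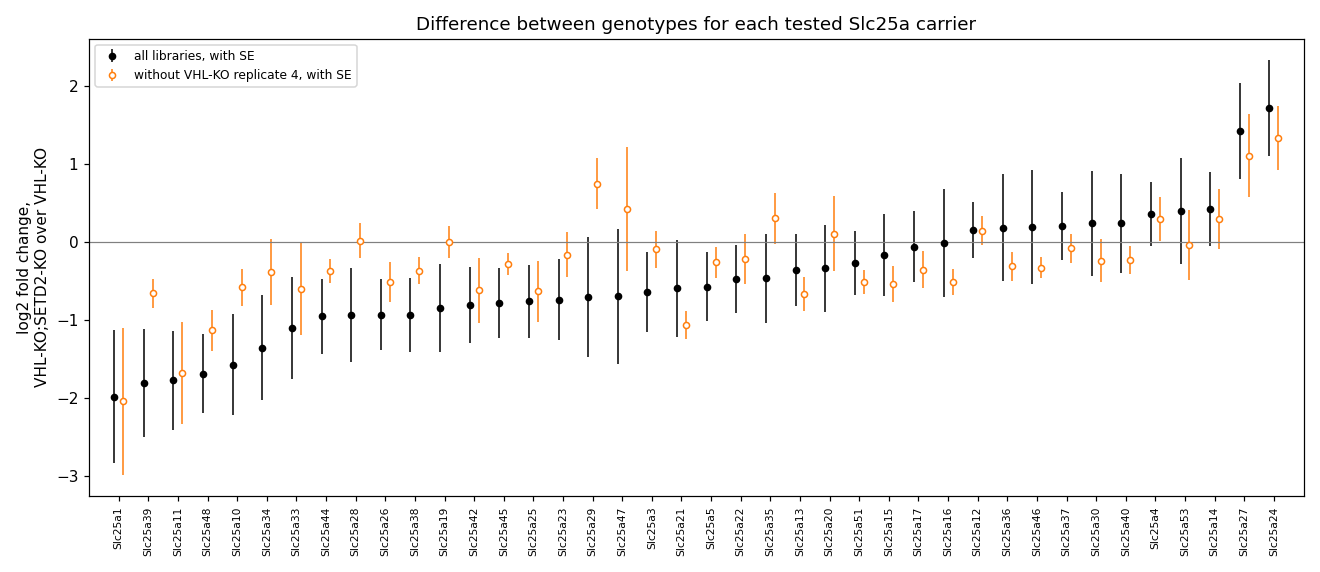
Log2 fold change of VHL-KO;SETD2-KO over VHL-KO with its SE for the 40 tested Slc25a carriers, from all libraries (filled black) and without VHL-KO replicate 4 (open orange). Of the black points 29 lie below 0, and many orange points lie closer to 0 with shorter bars.

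The carriers of Krebs cycle acids had the lowest median log2 fold change of the roles under TMM scaling. All 4 had negative log2 fold changes with a median of -1.68, and 3 of them were called lower: Slc25a10, which exchanges dicarboxylates such as malate and succinate for phosphate, Slc25a11, which exchanges 2-oxoglutarate for malate, and Slc25a1, which exports citrate. Slc25a10 (chr11:120491840-120499187 on GRCm38) had 279, 275 and 1109 CPM in the VHL-KO libraries and 154, 242 and 161 CPM in the VHL-KO;SETD2-KO libraries. The genotypes did not overlap, and VHL-KO replicate 4 stood far above the other 5 libraries. Its log2 fold change was -1.58 ± 0.65 (adjusted p = 0.625, edgeR), which was -0.58 ± 0.24 (adjusted p = 0.244) without VHL-KO replicate 4, just short of the unadjusted threshold and of the fold change. Leaving out any 1 of the VHL-KO;SETD2-KO libraries also ended the call.

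Slc25a11 (chr11:70644196-70647479) was sparse, with 24, 74 and 53 counts under VHL-KO and 21, 26 and 20 counts under VHL-KO;SETD2-KO. Every VHL-KO;SETD2-KO value was near that of the lowest VHL-KO library, replicate 1, so the groups overlapped. The log2 fold change was -1.78 ± 0.64 (adjusted p = 0.625, edgeR) and -1.68 ± 0.65 (adjusted p = 0.23) without VHL-KO replicate 4. It was not called without VHL-KO replicate 2 or without VHL-KO;SETD2-KO replicate 2 or 4. Slc25a1 (chr16:17925223-17928219) had 101, 7 and 33 counts under VHL-KO and 11, 26 and 7 under VHL-KO;SETD2-KO. VHL-KO replicate 1 held most of its counts, and the log2 fold change of -1.98 ± 0.85 (adjusted p = 0.625, edgeR) was -1.14 without that library, where it was not called. The call was also lost without VHL-KO replicate 4 and without VHL-KO;SETD2-KO replicate 2 or 4. The 4th carrier of the group, Slc25a21 (chr12:56712634-57197472), moves 2-oxoadipate and had 24.5, 23.1 and 4.11 CPM under VHL-KO and 10.6, 10.3 and 13.4 CPM under VHL-KO;SETD2-KO. Here VHL-KO replicate 4 was the lowest of all 6 libraries, which put the difference at -0.59 ± 0.63 (adjusted p = 0.759). Without that library the other VHL-KO values stood above all VHL-KO;SETD2-KO values, with a log2 fold change of -1.06 ± 0.18 (adjusted p = 0.0775, edgeR) that was called at unadjusted p.

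Slc25a39 was the most abundant of the carriers called lower. With Slc25a40 it brings glutathione into mitochondria. Slc25a39 (chr11:102402985-102407946) had 339.6, 344 and 1601 CPM under VHL-KO and 193, 258 and 202 CPM under VHL-KO;SETD2-KO, and the genotypes did not overlap. The log2 fold change was -1.81 ± 0.69 (adjusted p = 0.625, edgeR), a 3.50-fold lower level, and -0.66 ± 0.19 (adjusted p = 0.152), or 1.58-fold lower, without VHL-KO replicate 4. It was called without any 1 VHL-KO library but not without any 1 VHL-KO;SETD2-KO library. Slc25a40 went the other way in VHL-KO replicate 4, with 11.0, 12.4 and 1.87 CPM under VHL-KO and 10.3, 9.33 and 10.3 CPM under VHL-KO;SETD2-KO. The mitochondrial iron importers Slc25a28 and Slc25a37 had log2 fold changes of -0.94 ± 0.60 and 0.21 ± 0.44, with an adjusted p of 0.64 and 0.865.

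Slc25a48 was the carrier whose lower level under TMM scaling depended least on any one library. It has no role assigned in the lists used here. Slc25a48 (chr13:56438355-56474239) had 12.2, 12.3 and 29.8 CPM under VHL-KO and 5.89, 4.10 and 6.83 CPM under VHL-KO;SETD2-KO. All VHL-KO;SETD2-KO values were below all VHL-KO values, in replicates 1 and 2 as well as in replicate 4. The log2 fold change was -1.69 ± 0.50 (adjusted p = 0.625, edgeR), a 3.22-fold lower level. It was -1.13 ± 0.26 (adjusted p = 0.111) without VHL-KO replicate 4, and it was called whichever of the 6 libraries was left out. Of the other carriers without an assigned role, Slc25a45, the most abundant of them, had 34.3, 28.6 and 70.8 CPM under VHL-KO and 25.7, 25.4 and 26.9 CPM under VHL-KO;SETD2-KO, which did not overlap, with a log2 fold change of -0.78 ± 0.45 (adjusted p = 0.626).

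**Figure D3:**
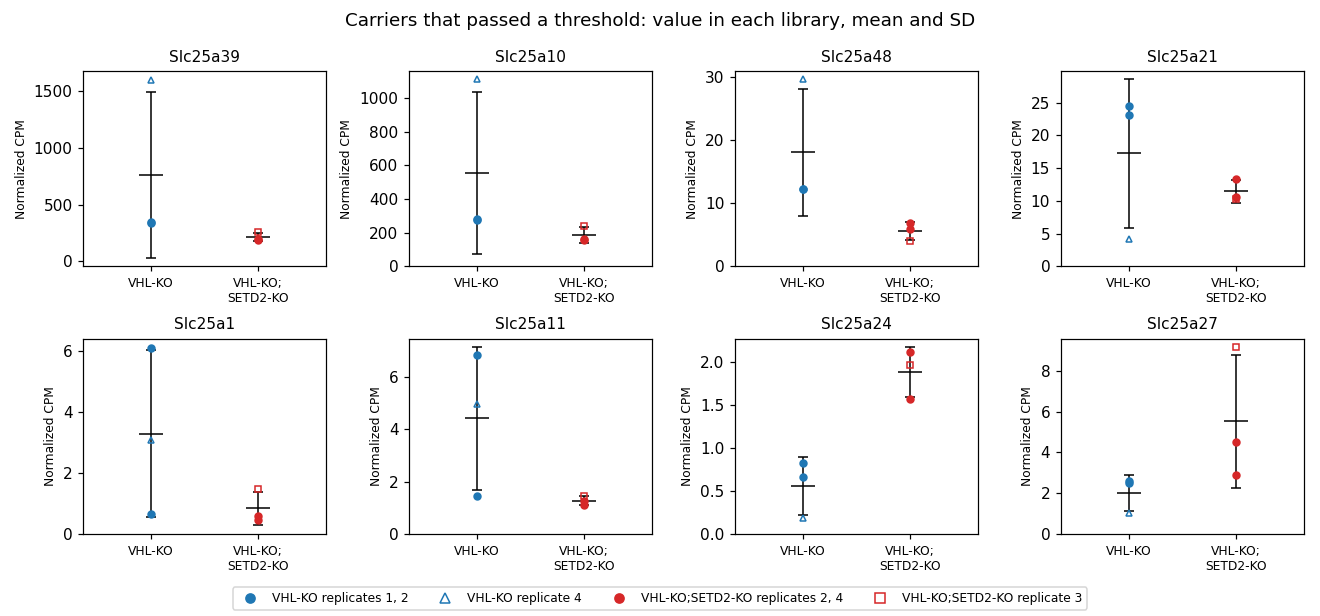
Normalized CPM (linear axes from about 0, one scale per gene) of 8 carriers that passed the unadjusted threshold with all libraries or without VHL-KO replicate 4, with each library as a point and the mean and SD of the 3 libraries of a genotype as bars. For Slc25a39 and Slc25a10 the wide VHL-KO bars come from replicate 4 (open triangle), at 1601 and 1109 CPM, while for Slc25a48 and Slc25a24 the genotypes are apart without it too.

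The 2 carriers called higher had few counts. Slc25a24 (chr3:109123149-109168457) exchanges ATP-Mg for phosphate under control of calcium and had 11, 9 and 2 counts under VHL-KO and 40, 35 and 25 under VHL-KO;SETD2-KO. Its lowest value, 2 counts, was below the limit of 3. The levels were 0.561 ± 0.335 CPM and 1.88 ± 0.287 CPM (mean ± SD, n = 3 each) and did not overlap, with a log2 fold change of 1.72 ± 0.62 (adjusted p = 0.625, edgeR) and 1.33 ± 0.41 (adjusted p = 0.171) without VHL-KO replicate 4. The call was lost without VHL-KO replicate 1 and without any 1 of the VHL-KO;SETD2-KO libraries. Slc25a27, a relative of the uncoupling proteins best known from brain, had 43, 27 and 11 counts under VHL-KO and 55, 163 and 72 under VHL-KO;SETD2-KO. Its CPM values did not overlap, yet VHL-KO;SETD2-KO replicate 3 was far above the rest. The log2 fold change of 1.43 ± 0.61 (adjusted p = 0.625, edgeR) was 0.86 without that library. Slc25a27 was called only when all libraries were used or VHL-KO;SETD2-KO replicate 2 was left out, among the fits that dropped at most 1 library.

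The exchangers of adenine nucleotides and phosphate, the most abundant group, gave no call apart from Slc25a24. Slc25a5 had 677, 687 and 1186 CPM under VHL-KO and 503, 675 and 534 CPM under VHL-KO;SETD2-KO. The values did not overlap, but those of VHL-KO replicate 1 and VHL-KO;SETD2-KO replicate 3 were nearly equal, and the log2 fold change was -0.57 ± 0.44 (adjusted p = 0.682). Its sister Slc25a4, the form of heart and muscle, was at 0.36 ± 0.42 (adjusted p = 0.773) and Slc25a3 at -0.64 ± 0.51 (adjusted p = 0.694). Slc25a23 and Slc25a25, calcium-regulated like Slc25a24, had negative values, -0.74 ± 0.52 and -0.76 ± 0.47.

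Carriers of amino acids had 6 negative values of 7, with a median of -0.48 and 0 calls. Slc25a13, the liver and kidney form of the aspartate-glutamate exchanger of the malate-aspartate shuttle, was the most abundant of them per kilobase. It had 129.7, 109.9 and 51.8 CPM under VHL-KO and 59.5, 93.9 and 73.9 CPM under VHL-KO;SETD2-KO, with a log2 fold change of -0.36 ± 0.46 (adjusted p = 0.797) that was -0.66 ± 0.22 (adjusted p = 0.185, edgeR) without VHL-KO replicate 4, where it was called at unadjusted p. Slc25a12, which does the same exchange in muscle and brain, was at 0.16 ± 0.36. Slc25a38, a glycine carrier that heme synthesis needs, had 23.8, 21.4 and 55.6 CPM and 15.3, 20.1 and 17.4 CPM. Slc25a44, a carrier of branched-chain amino acids, had 41.0, 42.1 and 103 CPM and 27.8, 36.7 and 31.8 CPM. Neither overlapped between genotypes, and their log2 fold changes were -0.93 ± 0.47 (adjusted p = 0.625) and -0.95 ± 0.48 (adjusted p = 0.625).

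Cofactor and nucleotide carriers had 7 negative values among 8 tested, a median of -0.54 and 0 calls. Slc25a51, which imports NAD+, was the most abundant, with 171, 152 and 89.2 CPM under VHL-KO and 103, 122 and 116 CPM under VHL-KO;SETD2-KO. VHL-KO replicate 4 was again the lowest library, so the log2 fold change was -0.27 ± 0.41 (adjusted p = 0.82) with it and -0.51 ± 0.15 (adjusted p = 0.162, edgeR) without it, short of the 1.5-fold threshold. Slc25a26, the carrier of S-adenosylmethionine, had 11.3, 9.23 and 20.9 CPM and 5.78, 9.05 and 6.83 CPM. Its genotypes did not overlap, at a log2 fold change of -0.93 ± 0.46 (adjusted p = 0.625). Slc25a20, the carnitine-acylcarnitine carrier of fatty acid oxidation, had 35.8, 46.6 and 86.1 CPM under VHL-KO and 28.6, 76.8 and 27.8 CPM under VHL-KO;SETD2-KO. Within VHL-KO;SETD2-KO replicate 3 was well above the others, and the log2 fold change of -0.34 ± 0.56 (adjusted p = 0.833) was 0.11 ± 0.48 without VHL-KO replicate 4 and -0.98 without VHL-KO;SETD2-KO replicate 3.

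The 3 uncoupling protein relatives all had positive values under TMM scaling with all libraries, and 1 of 3, Slc25a27, was called. Slc25a30, named for its expression in kidney, had 55.6, 50.05 and 7.94 CPM under VHL-KO and 30.9, 60.0 and 43.6 CPM under VHL-KO;SETD2-KO. VHL-KO replicate 4 was far below all others and turned the sign, from -0.24 ± 0.28 without it to 0.24 ± 0.68 with it. Slc25a46, which sits in the outer membrane and shapes mitochondria rather than transporting, had 63.0, 52.6 and 5.69 CPM and 44.0, 48.5 and 46.1 CPM, with 0.19 ± 0.73 over all libraries and -0.33 ± 0.14 without VHL-KO replicate 4.

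VHL-KO replicate 4 lay above the other VHL-KO libraries for some carriers and below them for others, and the difference went with exon length. The log2 difference between this library and the mean of VHL-KO replicates 1 and 2, with 0.5 added to the CPM, was compared over 3 nearly equal groups of genes by exon length. Its median over all tested genes was 0.84 for the short, 0.18 for the middle and -1.08 for the long group. The carriers had medians of 1.03 (13 carriers), 1.00 (19) and -0.56 (8) in the same groups. Across genes, which are not independent replicates, the Spearman correlation of length with this difference was -0.385 over all genes with a known length (94.4%) and -0.441 over the 40 carriers. Above 0 were 10 of the 13 short, 10 of the 19 middle and 3 of the 8 long carriers. Slc25a39 of the short group and Slc25a10 of the middle group were among the carriers far above 0. The lowest were Slc25a46 and Slc25a16, both of the middle group, and Slc25a36 of the long group. Without VHL-KO replicate 4 the median log2 fold change between genotypes of the carriers was -0.35, -0.33 and -0.22 in the short, middle and long groups, against 0.014, 0.052 and 0.030 for all genes. The part that length plays in the differences between genotypes was not tested.

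**Figure D4:**
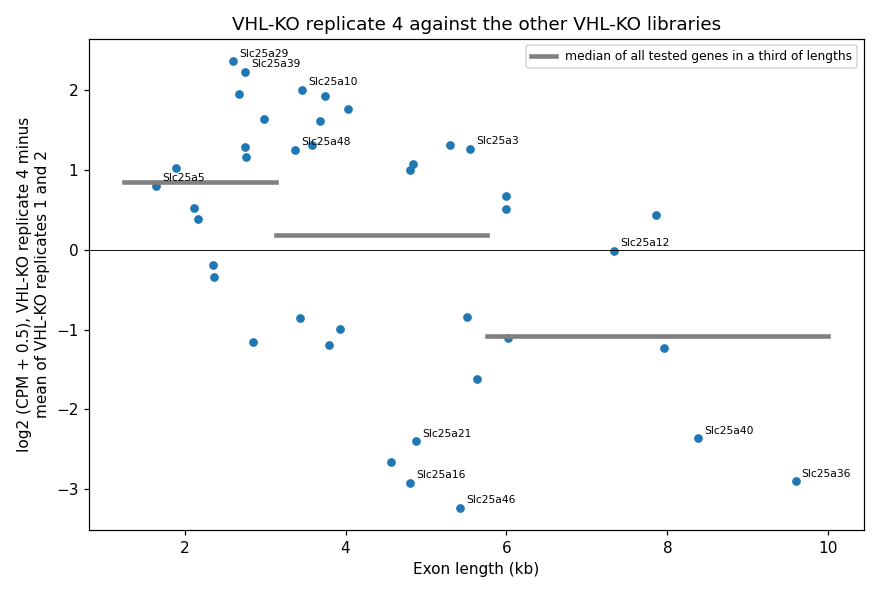
Exon length (kb) against the log2 difference in CPM + 0.5 between VHL-KO replicate 4 and the mean of VHL-KO replicates 1 and 2, for the 40 tested carriers (points), with the medians of all tested genes in 3 groups of length as grey lines at 0.84, 0.18 and -1.08. Most short carriers lie above 0, and the lowest values are those of Slc25a46, Slc25a16 and Slc25a36.

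Leaving out VHL-KO replicate 4 kept the number of calls but not the carriers. edgeR then tested all 42 and called 5 lower at an unadjusted p under 0.05 (11.9%, against 7.15% of all genes), namely Slc25a11, Slc25a13, Slc25a21, Slc25a39 and Slc25a48, and 2 higher (4.76%, against 8.29%), Slc25a24 and Slc25a43. Slc25a43, of no assigned role, had only 2, 2 and 7 counts under VHL-KO and 8, 15 and 12 under VHL-KO;SETD2-KO. Slc25a39, Slc25a11, Slc25a48 and Slc25a24 were thus called in both fits. Values did not overlap for 14 carriers that were lower (33.3%, against 21.2%) and 4 that were higher (9.52%, against 20.5%). With VHL-KO;SETD2-KO replicate 3 left out in its place, 18 were lower without overlap (45.0%, against 19.0% of all genes) and 2 higher (against 20.1%). DESeq2 without VHL-KO replicate 4 called 3 carriers lower after Benjamini-Hochberg adjustment (7.14%, against 4.71% of all genes) and 0 higher (against 3.63%). The 3 were Slc25a21 (DESeq2 adjusted p = 0.000373), Slc25a48 (adjusted p = 0.00915) and Slc25a39 (adjusted p = 0.0222). edgeR on the same libraries called 0 after adjustment, with 9 carriers at an unadjusted p under 0.05.

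With VHL-KO;SETD2-KO replicate 3 left out as well, a choice made after the values of both libraries were seen, 2 libraries of each genotype remained. edgeR then called 10 carriers lower after Benjamini-Hochberg adjustment with a fold change of at least 1.5 (25.0% of 40, against 7.89% of all genes) and 0 higher (against 8.90%). At an unadjusted p under 0.05 this fit called 15 lower (37.5%, against 10.4%) and 2 higher (against 13.4%). They included Slc25a10 at a log2 fold change of -0.81 ± 0.11 (adjusted p = 0.00699), Slc25a39 at -0.79 ± 0.11 (adjusted p = 0.00728), Slc25a48 at -0.95 ± 0.19 (adjusted p = 0.0185), Slc25a21 at -0.99 ± 0.17 (adjusted p = 0.0108) and Slc25a42, the importer of coenzyme A, at -1.15 ± 0.16 (adjusted p = 0.0074). The other 5 were Slc25a13, Slc25a15, Slc25a16, Slc25a17 and Slc25a34. Slc25a42 is an example of a carrier high in VHL-KO;SETD2-KO replicate 3, with 78.1, 85.6 and 117 CPM under VHL-KO and 31.5, 86.5 and 42.5 CPM under VHL-KO;SETD2-KO, and replicate 3 was level with the VHL-KO libraries. These calls rest on 4 libraries picked with the outcome known.

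Scaled to the proximal tubule markers most genes were higher in the VHL-KO;SETD2-KO libraries, and so were the carriers, though by less at the median (0.69 against 1.15 for all genes on the log2 scale). Their summed level per 1000 CPM of marker was 262, 272 and 263 CPM in the VHL-KO libraries and 411, 407 and 364 CPM in the VHL-KO;SETD2-KO libraries, without overlap and with VHL-KO replicate 4 next to the other 2. On this scale 27 of the 40 tested carriers were higher without overlap (67.5%, against 62.2% of all genes) and 0 lower (against 0.342%), and edgeR with library sizes from the markers called 5 higher at an unadjusted p under 0.05 (12.5%, against 31.9%) and 0 lower (against 0.0753%). The share without overlap was thus near that of all genes and the share called higher was below it. The 5 were Slc25a4, Slc25a12, Slc25a14, Slc25a24 and Slc25a27. Slc25a24 and Slc25a27 were called higher on both scales. The 5 carriers called lower under TMM scaling kept a negative sign here but overlapped between genotypes and were not called. Their log2 fold changes were -0.91 ± 0.85 for Slc25a1, -0.15 ± 0.435 for Slc25a10 and -0.63 ± 0.66 for Slc25a11. Slc25a39 was at -0.33 ± 0.47 and Slc25a48 at -0.31 ± 0.43. The phosphate carrier Slc34a1 made up 33.7% to 37.0% of the marker sum in 5 libraries and 54.5% in VHL-KO replicate 4.

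The machinery that brings carriers to the inner membrane had the same sign under TMM scaling. All 12 tested genes of the list, which held the TOM receptors, the small TIM chaperones and the TIM22 complex, had negative log2 fold changes over all libraries with a median of -0.70, and 0 were called. The farthest was Timm13, a chaperone of the intermembrane space, at -1.50 with VHL-KO replicate 4 and -0.20 without it. Without that library the median was -0.22, and Tomm40 (0.02) and Timm10b (0.12) were no longer negative. In that fit 2 of the 12 were called lower, against 7.15% of all genes. They were Tomm70a, the import receptor for carriers, at -0.60 and the chaperone Timm9 at -0.63. Of the family members that have other symbols, Ucp2 (0.02), Mtch1 (-0.73) and Mtch2 (-0.48) were tested and 0 called. Without VHL-KO replicate 4 they stood at 1.05, 0.45 and -0.53, so that library turned the sign of Mtch1 and set the value of Ucp2, and again 0 were called. Ucp1 and Ucp3 had too few counts. Among the pyruvate carrier and the outer membrane pores 0 of 5 were called, with Vdac1, the main pore, at -1.004 (-0.48 without VHL-KO replicate 4). For comparison with other nuclear-encoded mitochondrial genes, 76 mitochondrial ribosomal proteins had a median of -0.69 (6 called lower). The 77 respiratory chain subunits had one of -1.01 (1 called lower). Over all genes 4.68% were called lower. Without VHL-KO replicate 4 these medians became -0.26 and -0.15, beside -0.27 for the carriers. A difference between these lists and the carriers was not tested.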

How the data were processed

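Directional libraries of PTEC RNA were sequenced by the authors as read pairs of 150 bases, and a table of raw, unscaled counts of the 6 libraries was deposited with gene symbols as its keys. HISAT2 2.0.4 and GRCm38 are named in the submitters' processing notes. The counting program, the annotation and the use of strand in counting are not given in the sources used here. Genotype and replicate number came from the sample labels, which do not say that each library is a separate mouse. The paper gives 3 mice per group for the RNA sequencing. Columns of samples not used numbered 0.

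Genes that passed filterByExpr were scaled by TMM and tested for genotype with the quasi-likelihood test of edgeR 4.0.16 (R 4.3.3). A call needed a fold change of at least 1.5 and a p under 0.05, before or after Benjamini-Hochberg adjustment over all tested genes. The study's methods give these thresholds for DESeq2 without saying whether p was adjusted. Errors beside a log2 fold change are SE. The fits were tested on simulated data.

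The carriers, lists and tests were chosen with earlier results of these data known. Carriers are described in full if called, if their genotypes did not overlap, or if highest per kilobase in their role, and each pathway list is given with its calls and its largest change. Slc25a21, Slc25a40, Slc25a42 and Slc25a43 were named after their values were seen. Exon lengths came from GENCODE M21 and promoters from RefSeq (GRCm38.p6), and all 42 carriers matched a GENCODE gene.

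Alternatives planned were DESeq2 1.42.0, its size factors in edgeR, limma-voom (limma 3.58.1), other filters, a fold change of at least 2, library sizes without the 13 mitochondrially encoded genes, the replicate number as a block, leaving out each library, and DESeq2 without VHL-KO replicate 4. Chosen after seeing the data were a crossed block, library sizes from the proximal tubule markers, leaving out VHL-KO replicate 4 and VHL-KO;SETD2-KO replicate 3 together, and the lists of ribosomal proteins and respiratory subunits. Replicate 3 was doubted for its Xist counts, after its carrier levels had been seen.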

Additional observations from a re-analysis of the deposited data

How the results depend on the processing

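Counts of carriers called at unadjusted p were 2 higher and 5 lower. The higher count was 1 with DESeq2's size factors, with limma-voom and with at least 10 counts in every library, and 0 with the replicate block. The lower count was 1 with limma-voom and with the replicate block. Leaving out each library gave 0 to 2 higher and 1 to 5 lower, with 1 lower without VHL-KO;SETD2-KO replicate 2 and 1 without VHL-KO;SETD2-KO replicate 4. A fold change of at least 2 gave 2 and 5. With library sizes from the proximal tubule markers the counts were 5 higher and 0 lower and the median was 0.69, and with both libraries left out 15 were lower (37.5%, against 10.4% of all genes). After adjustment the edgeR and limma-voom counts were 0 except 10 with both libraries left out. DESeq2 gave 0, but with an adjusted p for only 6 of the 40 carriers, and 3 without VHL-KO replicate 4, where 39 of 42 had one. Carriers without overlap numbered 10, and 11 to 20 when 1 library was left out (18 without VHL-KO replicate 4, or 42.9% against 41.5% of all genes, and 20 of 40 without VHL-KO;SETD2-KO replicate 3, against 39.1%). The median stayed between -0.83 and -0.27 under the alternatives not chosen after seeing the data. Except where a library was left out, the cause of these shifts was not tested.

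Only the numbers 2 and 4 occur in both genotypes, and same-numbered libraries did not deviate together (r = 0.164 and -0.326). With so few pairs these values cannot show whether such libraries share more than a number. The block left Slc25a11 as the one call, lost Slc25a48, and turned the sign of Slc25a12 (-0.019), Slc25a15 (0.24), Slc25a16 (0.87) and Slc25a21 (0.27). The crossed replicate block (r = 0.329 and -0.157), chosen after seeing the data, gave 0 higher and 1 lower.

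Other signs turned for carriers with no call when all libraries were used. Limma-voom gave 0.0097 for Slc25a15, 0.47 for Slc25a16 and 0.0017 for Slc25a17, and Slc25a16 was 0.0026 without a filter and 0.0078 with at least 10 counts. DESeq2 without VHL-KO replicate 4 gave 0.10 for Slc25a20, 0.014 for Slc25a28, 0.75 for Slc25a29, -0.24 for Slc25a30, 0.30 for Slc25a35, -0.32 for Slc25a36, -0.083 for Slc25a37, -0.23 for Slc25a40, -0.33 for Slc25a46, 0.41 for Slc25a47 and -0.051 for Slc25a53. Leaving out 1 library gave ranges of -0.011 to 0.26 for Slc25a12, -0.54 to 0.26 for Slc25a15, -0.51 to 0.37 for Slc25a16, -0.35 to 0.15 for Slc25a17, -0.98 to 0.11 for Slc25a20, -1.24 to 0.019 for Slc25a28, -1.09 to 0.75 for Slc25a29, -0.24 to 0.63 for Slc25a30, -0.81 to 0.30 for Slc25a35, -0.31 to 0.70 for Slc25a36, -0.078 to 0.43 for Slc25a37, -0.23 to 0.62 for Slc25a40, -0.33 to 0.66 for Slc25a46, -1.16 to 0.43 for Slc25a47 and -0.041 to 1.196 for Slc25a53.

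Depth limits Slc25a1, Slc25a11, Slc25a24, Slc25a27 and Slc25a43, each with a library under 30 counts. The same holds for Slc25a14, Slc25a29, Slc25a32, Slc25a33, Slc25a40, Slc25a47 and Slc25a53.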
